A study of Mus musculus with 36 samples.

Results

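The complement genes examined were the 8 rows of the count tables that carry the symbols *C1qa*, *C1qb*, *C1qc*, *C3*, *C4b*, *C3ar1*, *C5ar1* and *Serping1*, out of 20717 nuclear genes. They were followed cell by cell in the infarcted region of the left ventricle, from C57BL/6 males aged 8 weeks. The sham-operated hearts came from day 1 (4 plates) and day 14 (8 tables). Ischemia-reperfusion (IR), in which the left anterior descending artery was tied for 1 hour and released, filled 9 plates at day 1, 7 at day 3 and 3 at day 14, and myocardial infarction (MI), in which the same artery stayed tied, filled 5 plates at day 3. All groups carry the same strain, sex and age labels. A plate is 384 wells with 1 sorted cell each, and transcripts were counted as unique molecular identifiers (UMIs) read from the polyadenylated 3′ end. The labels do not say which mouse a plate came from, and most groups have more plates than the mice the study describes for each condition, so *p* values over plates may be too small. The MI plates carry a protocol label of their own, so batch and MI cannot be told apart.

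Complement is a set of plasma proteins that mark damaged cells and microbes for removal. C1q, built from the A, B and C chains that *C1qa*, *C1qb* and *C1qc* encode, recognizes the target and starts the classical pathway, which cleaves C4 and then C3. Fragments of C3 and C5 attract and activate leukocytes through the receptors encoded by *C3ar1* and *C5ar1*, and C1 inhibitor, the product of *Serping1*, blocks the proteases C1r and C1s that travel with C1q. Tissue macrophages are a well-known source of C1q, whereas connective tissue cells make C1r, C1s, C3 and regulators.

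Plates held between 176614 and 5551870 UMIs. Of 13824 wells, 3146 reached 1000 UMIs. Replicates 2 and 7 of sham day 14 were found to be the same plate and were counted once, and 40 wells copied between plates were left out, 19 of them above the UMI minimum. This left 3092 cells, which were clustered without the complement genes and named by fixed markers as 621 macrophage-like, 294 fibroblast-like, 433 endothelial-like, 1116 cardiomyocyte-like, 155 neutrophil-like and 15 mural-like cells, with 458 other cells. These 458 were unnamed, apart from a small cluster of erythroid cells (12 before copies were left out). One IR day 3 plate held no well of 1000 UMIs, and day 14 sham plates gave no sum of 5 macrophage-like cells, so macrophage-like cells were compared with sham day 1 alone.

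In the mouse genome (GRCm38.p6) the 3 C1q genes lie next to each other on chromosome 4, in the order *C1qb* (136880126 to 136886200), *C1qc* (136889801 to 136892936) and *C1qa* (136895916 to 136898844), with 3600 and 2979 bases between neighbours and 18719 bases in all. *C3* (57203967 to 57228136) and *C4b* (34728139 to 34743902) are far apart on chromosome 17, *C3ar1* is on chromosome 6 (122847140 to 122856157), *C5ar1* on chromosome 7 (16246743 to 16259540) and *Serping1* on chromosome 2 (84765360 to 84775444). The RefSeq promoter table held 5 of the 8 genes. The 250 bases before the transcript start are shown for neighbouring C1q genes, which were found mainly in macrophage-like cells, and for *C3*, found mainly in fibroblast-like cells, each on the minus strand and read 5′ to 3′. Capitals mark matches, on either strand, to the core of the PU.1 motif (GAGGAA, reverse complement TTCCTC) and to a C/EBP motif (TTNNGNAA, reverse complement TTNCNNAA). PU.1 and the C/EBP factors are transcription factors of myeloid cells, and C/EBP factors also act in acute-phase responses.

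C1qb, chr4:136886201-136886450: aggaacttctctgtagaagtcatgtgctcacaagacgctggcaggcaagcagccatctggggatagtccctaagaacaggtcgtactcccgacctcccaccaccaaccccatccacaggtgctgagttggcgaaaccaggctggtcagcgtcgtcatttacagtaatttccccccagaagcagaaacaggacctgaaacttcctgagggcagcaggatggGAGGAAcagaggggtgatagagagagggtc
C1qc, chr4:136892915-136893164: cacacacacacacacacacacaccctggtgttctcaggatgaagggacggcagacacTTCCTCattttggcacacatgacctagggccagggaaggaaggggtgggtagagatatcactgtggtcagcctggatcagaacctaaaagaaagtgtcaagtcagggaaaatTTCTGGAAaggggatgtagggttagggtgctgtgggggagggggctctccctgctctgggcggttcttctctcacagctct
C3, chr17:57228137-57228386: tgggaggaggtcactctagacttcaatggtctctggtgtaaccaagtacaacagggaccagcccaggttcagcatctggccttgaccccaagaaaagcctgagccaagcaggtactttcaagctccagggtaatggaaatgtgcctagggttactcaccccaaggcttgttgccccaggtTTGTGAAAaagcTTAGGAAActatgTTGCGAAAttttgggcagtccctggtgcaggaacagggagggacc

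The *C1qb* sequence held a PU.1 core 30 bases before the start and no C/EBP match. The *C1qc* sequence held a PU.1 core on the reverse strand and a C/EBP match at 81 bases. The *C3* sequence held no PU.1 core and had C/EBP matches 70, 58 and 45 bases before the start, the last of them on both strands. Among 32851 promoter sequences of this length, 23.3% held the PU.1 core, 36.8% the C/EBP motif and 2.61% at least 3 C/EBP positions. The *C5ar1* sequence had a C/EBP match 157 bases before the start and that of *C3ar1* had neither motif. Distances count from the start of the transcript in the promoter table. For *C1qc* and *C5ar1* this start lies inside the gene interval given above, so their sequences overlap that interval. The motifs were chosen with the sequences in view and the matches are a description of the letters.

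The transcripts of the 8 genes fell into a macrophage-like and a fibroblast-like set. Macrophage-like cells held 94.8% of the 16606 *C1qa* UMIs, 92.6% of 32978 *C1qb* UMIs and 91.6% of 25495 *C1qc* UMIs. They also held 94.2% of 9751 *C3ar1* UMIs and 87.9% of 5514 *C5ar1* UMIs. Fibroblast-like cells held 77.6% of 4149 *C3* UMIs (95% exact binomial interval 76.3 to 78.8) and 83.4% of 5292 *Serping1* UMIs (82.4 to 84.4). *C4b* was rare, with 218 UMIs in all, of which macrophage-like cells held 67.9% (61.3 to 74.0) and fibroblast-like cells 25.2%. Intervals cover counting error only. Deep libraries of large cells weigh more in such sums. When each class was instead given its mean CPM (UMIs per 1000000 UMIs of all genes) per cell, the same class led for every gene, with 84.1%, 76.6% and 74.9% for the C1q chains, 81.4% for *C3ar1*, 62.1% for *C5ar1*, 59.3% for *C3*, 70.5% for *Serping1* and 65.9% for *C4b*.

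**Figure D1:**
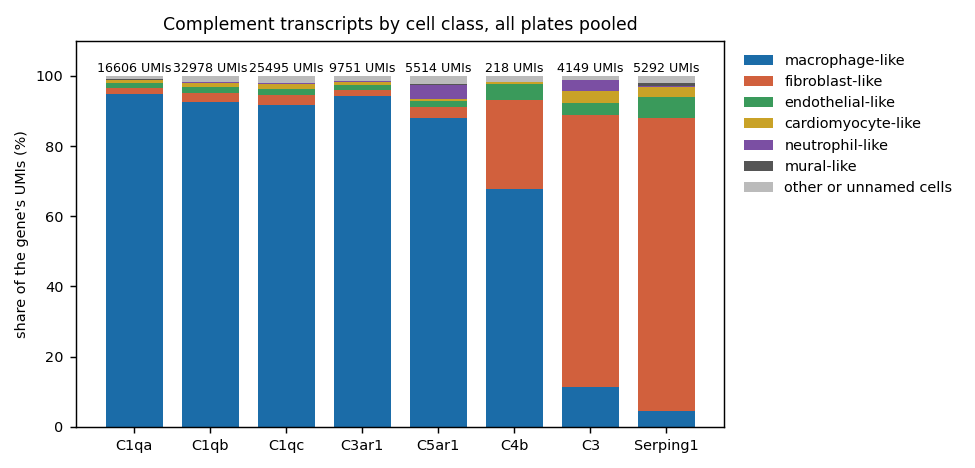
Share of each gene's UMIs held by each cell class, with the cells of all plates pooled (y axis in percent, 1 bar per gene, number of UMIs above it). Macrophage-like cells hold most UMIs of the C1q chains and both receptors, and fibroblast-like cells hold 77.6% of *C3* and 83.4% of *Serping1*.

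The division held plate by plate. On the 17 plates with at least 5 cells of both classes, *C1qa*, *C1qb*, *C1qc*, *C3ar1* and *C5ar1* were higher in the macrophage-like sum on 17 of 17, and *C3* and *Serping1* were higher in the fibroblast-like sum on 17 of 17. In edgeR's quasi-likelihood test with the plate as a block, 7 of 7 tested members differed between the classes, where 68.8% of 2349 tested genes did. The log2 difference, macrophage-like minus fibroblast-like, was 6.35 ± 0.45 (SE, n = 17 plates) for *C1qa*, 5.53 ± 0.39 for *C1qb*, 5.43 ± 0.41 for *C1qc*, 5.36 ± 0.29 for *C3ar1* and 4.68 ± 0.26 for *C5ar1*. It was -3.42 ± 0.39 for *C3* and -4.94 ± 0.31 for *Serping1*, about 10.7 and 30.7 times lower in macrophage-like cells. The largest edgeR adjusted *p* of these members was 3.91e-08, that of *C3*. A two-sided exact sign-flip permutation test over plates gave *p* = 1.53e-05 for each, the smallest it can give. *C4b* was too rare for edgeR and was higher in macrophage-like cells on 10 plates and in fibroblast-like cells on 6 (exact permutation *p* = 0.0511, unadjusted).

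Single wells gave the same order. After each cell was thinned to 1000 UMIs, 54.4% of macrophage-like cells had a *C1qa* UMI, 70.9% *C1qb*, 66.5% *C1qc*, 49.3% *C3ar1* and 31.7% *C5ar1*. In cardiomyocyte-like cells, which are not a known source, these shares were 4.6%, 7.6%, 8.2%, 2.3% and 0.7%. Unthinned, at a median of 12242 UMIs per macrophage-like cell and 2313 per cardiomyocyte-like cell, the *C1qc* shares were 87.3% and 17.1%. Thinned fibroblast-like cells had a *Serping1* UMI in 47.3% and a *C3* UMI in 29.6%, against 3.7% and 2.2% of cardiomyocyte-like cells (93.5% and 72.1% against 8.7% and 5.6% unthinned, at a median of 17167.5 UMIs per fibroblast-like cell). All 3 C1q chains were seen together in 283 of 621 thinned macrophage-like cells and in 1 of 294 fibroblast-like cells.

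In the summed cells of a plate, the C1q chains, which form the recognition subunit, were low in sham hearts and high at day 3 after both operations. *C1qb* stood at 42.1, 357, 298 and 509 CPM on the 4 sham day 1 plates. On the 7 sham day 14 plates it ran from 0 to 874 with a median of 11.2, and at IR day 1 from 98.9 to 1288 with a median of 256. At IR day 3 the 6 plates ran from 924 to 3512 with a median of 1761, the MI day 3 plates held 1390, 1277, 976, 1705 and 1009, and the IR day 14 plates 17.9, 18.8 and 297. Every day 3 plate was above every sham plate, and IR day 1 overlapped with both. Fewer cells of a type and less RNA per cell cannot be told apart in these sums. Macrophage-like cells made up 4.86% of the cells of sham day 1, 1.93% of sham day 14, 22.3% of IR day 1, 32.1% of IR day 3, 39.1% of MI day 3 and 1.26% of IR day 14.

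All 3 chains and both receptors rose at day 3. At IR day 3 against both sham groups, weighted equally, 5 of the 7 members tested rose and none fell, where 18.7% of 9287 genes rose and 30% passed in either direction (edgeR, adjusted *p* under the threshold of 0.05). *C1qa* was 5.84-fold, *C1qb* 7.91-fold and *C1qc* 7.41-fold higher (edgeR adjusted *p* = 0.00184, 0.00108 and 0.00125), *C3ar1* 10.4-fold (adjusted *p* = 4.00e-05) and *C5ar1* 5.08-fold (adjusted *p* = 0.00137). Against both sham groups the same 5 rose at MI day 3, where 33.3% of genes rose and 56.5% passed in either direction, with log2 differences of 2.23 ± 0.63 for *C1qa*, 2.34 ± 0.69 for *C1qb*, 1.86 ± 0.68 for *C1qc*, 2.74 ± 0.60 for *C3ar1* and 3.17 ± 0.53 for *C5ar1* (SE; largest edgeR adjusted *p* = 0.0198, for *C1qc*, and 0.0522 with copied wells kept). Both comparisons use the same sham plates. *C3* differed by 0.42 and -0.41 and *Serping1* by 0.48 and -0.68 on the log2 scale, and neither passed the test. *C4b* was not tested, as it did not pass the filter on low counts. MI day 3 against IR day 3 called none of the 7 members (edgeR, also none with an unadjusted *p* under 0.05), where 17.2% of genes passed.

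The receptor *C5ar1*, through which the fragment C5a acts on myeloid cells, had another time course. It was at 6.64, 102, 64.6 and 52.0 CPM on the sham day 1 plates, between 103 and 472 with a median of 269 at IR day 1, between 63.5 and 148 with a median of 109 at IR day 3, and between 199 and 242 at MI day 3. It was above 0 on 1 of 7 sham day 14 plates and 1 of 3 IR day 14 plates. IR day 1 lay above sham day 1 on every plate and overlapped with IR day 3. At IR day 1 against sham day 1 *C5ar1* was the 1 member of 7 that passed, 4.47-fold higher (edgeR adjusted *p* = 0.00273), where 36.3% of genes passed, 19.5% upwards.

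From IR day 1 to IR day 3 the C1q chains and *C3ar1* rose and *C5ar1* fell, 5 calls among 7 members where 28.8% of genes passed. The log2 difference was 1.61 ± 0.61 for *C1qa*, 2.01 ± 0.68 for *C1qb*, 2.49 ± 0.68 for *C1qc*, 1.69 ± 0.54 for *C3ar1* and -1.27 ± 0.47 for *C5ar1* (edgeR adjusted *p* = 0.0419, 0.0221, 0.00488, 0.0165 and 0.0375). *C1qb* and *C1qc* passed without any 1 plate. *C1qa* did not without IR day 1 replicate 1, 2, 6, 7, 8 or 9 or IR day 3 replicate 1, 4, 6 or 7 (edgeR adjusted *p* from 0.0534 to 0.103). *C3ar1* did not without IR day 3 replicate 4 or 7 (0.0536 and 0.0548), nor *C5ar1* without IR day 1 replicate 3, 5 or 8 or IR day 3 replicate 5 or 6 (0.0516 to 0.0672). *C1qa* also did not pass in wells of at least 2000 UMIs (adjusted *p* = 0.0707), nor *C5ar1* with DESeq2 (adjusted *p* = 0.0512). At IR day 14 against sham day 14 no member passed (edgeR, 0 of 7, none with an unadjusted *p* under 0.05), where 0.0215% of genes did, 2 of 9287, and 686 had an unadjusted *p* under 0.05.

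**Figure D2:**
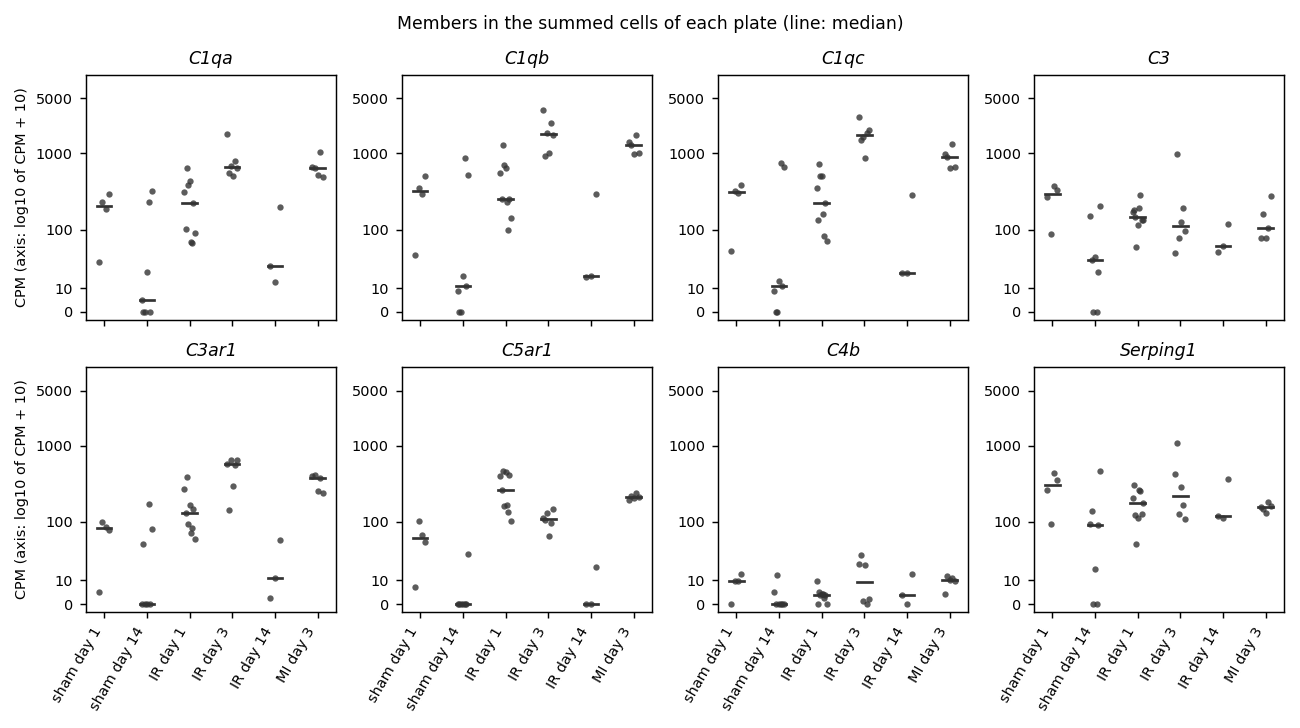
CPM of each gene in the summed cells of each plate, by operation and day (y axis log10 of CPM + 10, 1 point per plate, line at the median). The C1q chains and *C3ar1* are highest at IR day 3 and MI day 3, *C5ar1* is highest at IR day 1, and *C3* and *Serping1* overlap between groups.

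Within macrophage-like cells, C1q medians were lowest at IR day 1. *C1qc* was at 1998, 2988 and 3763 CPM on the 3 sham day 1 plates, between 333 and 1667 with a median of 860 on the 9 IR day 1 plates, between 2702 and 4653 with a median of 3380 on the 6 IR day 3 plates, and at 1999, 1669, 1446, 2562 and 1498 on the MI day 3 plates. Each IR day 1 plate was below each sham and each IR day 3 plate, and MI day 3 overlapped with IR day 1. *C1qb* averaged 1444 ± 786 (SD, n = 9) at IR day 1, 3749 ± 1111 (n = 6) at IR day 3, 2621 ± 501 (n = 5) at MI day 3 and 3125 ± 1210 (n = 3) at sham day 1. *C1qa* ran from 254 to 1512 at IR day 1, 1043 to 2714 at IR day 3, 1169 to 2125 at MI day 3 and 1311 to 2763 at sham day 1, with overlap between IR day 1 and the other groups.

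From IR day 1 to IR day 3, 7 of the 8 members changed in macrophage-like cells, 5 up and 2 down, where 26.5% of 5132 genes did. The C1q chains rose by 1.00 ± 0.28 (*C1qa*), 1.38 ± 0.29 (*C1qb*) and 1.91 ± 0.27 (*C1qc*) on the log2 scale, and *C3ar1* by 1.10 ± 0.25 (SE; edgeR adjusted *p* = 0.00852, 0.000599, 4.94e-06 and 0.00138). *C5ar1* fell by 1.61 ± 0.26 (edgeR adjusted *p* = 3.79e-05). It lay between 200 and 957 CPM with a median of 830 at IR day 1 and between 175 and 306 at IR day 3. *C3* fell by 2.12 ± 0.56 (edgeR adjusted *p* = 0.00524) at a low level, with a median of 88.7 CPM at IR day 1 and 21.0 at IR day 3, and the plates overlapped. *Serping1* passed upwards (edgeR adjusted *p* = 0.00694) on few UMIs, 5 at IR day 1 and 72 at IR day 3, and was 0 on 5 of 9 and 3 of 6 plates.

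The class was not the same mixture of cells at each time. At IR day 1, 80.9% of macrophage-like cells were in a cluster led by *Saa3*, at IR day 3 82.6% were in a cluster led by *Gpnmb*, a gene of lipid-laden phagocytes, and at sham day 1 61.9% were in a cluster led by *Cd209f*, which also carried *Lyve1*, *Cd163* and *Folr2*, genes of resident macrophages. Of the MI day 3 cells, 43.6% were in the *Gpnmb* cluster and 55.7% in the *Saa3* cluster. With the clustering at resolution 2, which named 38 cells of IR day 1 and 164 of IR day 3 as macrophage-like, only *C5ar1* of the 7 still passed, and the log2 differences were -0.33 for *C1qa*, 0.05 for *C1qb*, 0.68 for *C1qc* and 0.06 for *C3ar1* (edgeR adjusted *p* from 0.602 to 0.982). *Serping1* did not pass with the complement genes in the clustering (adjusted *p* = 0.313). With at least 10 cells per plate *C1qa* was at 0.49 and *C1qb* at 0.92 (edgeR adjusted *p* = 0.298 and 0.0580), and neither passed. *C1qa* also missed the threshold with 1 cell per plate (0.0868) and in wells of 2000 UMIs (0.0541), and *C3* with DESeq2 (0.0583).

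Other macrophage-like comparisons gave fewer calls. At IR day 1 against sham day 1, 2 of 8 members fell, *C1qc* by 1.66 ± 0.33 and *C1qa* by 1.33 ± 0.35 on the log2 scale (edgeR adjusted *p* = 0.00338 and 0.0289), where 2.79% of genes passed. Without sham day 1 replicate 4 neither passed (adjusted *p* = 0.0943 and 0.342). *C1qa* also failed without sham day 1 replicate 3 or IR day 1 replicate 2, 6, 7, 8 or 9 (0.0546 to 0.127). Both falls were smaller and did not pass at resolution 2, at -0.53 for *C1qc* and -0.15 for *C1qa* (edgeR adjusted *p* = 0.732 and 0.973). Settings that let sham day 14 plates in compared IR day 1 with both sham groups instead. With at least 1 cell per plate, which added 4 sham day 14 plates of 1 to 4 cells, the differences were -1.05 and -0.33 (0.102 and 0.640). With copied wells kept, which added a sham day 14 plate whose 7 macrophage-like cells were all in wells matched to an IR day 3 plate, *C1qa* was at -0.39 (0.657). Between MI day 3 and IR day 1, *C1qc* (1.00 ± 0.28, edgeR adjusted *p* = 0.0254) and *Serping1* (adjusted *p* = 0.0464, 155 against 5 UMIs) passed, where 7.19% of genes did. *C1qc* failed without IR day 1 replicate 7, 8 or 9 or MI day 3 replicate 1, 2 or 4 (0.0594 to 0.150) and *Serping1* without IR day 1 replicate 4, 6 or 9 (0.0668 to 0.0760). At resolution 2 *C1qc* was at 0.15 (0.964) and *Serping1* at 1.33 (0.814), and neither passed. *C1qc* also failed with at least 10 cells (0.120) or 1 cell per plate (0.244). *Serping1* failed with RLE scaling (0.0555) and with complement genes in the clustering (0.515). Macrophage-like *C5ar1* was 1.97-fold higher at MI day 3 than at IR day 3 (adjusted *p* = 0.0227), where 9.16% of genes passed, with 402, 407, 465, 450 and 477 CPM on the MI plates, all above the IR day 3 plates. It failed without IR day 3 replicate 4 or 7 or MI day 3 replicate 3 or 5 (0.0526 to 0.0642). Against sham day 1, MI day 3 called 0 of 8 members (edgeR, 1 with an unadjusted *p* under 0.05, *C4b*), where 2.4% of genes passed.

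The 3 chains did not move by the same factor. The ratio of *C1qc* to *C1qa* UMIs in macrophage-like cells was 1.64, 2.74, 2.33, 1.74, 2.15 and 3.07 on the IR day 3 plates. It was between 0.867 and 2.00, with 8 of 9 plates at or below 1.31, at IR day 1 and 1.38, 1.34, 1.13, 1.21 and 1.28 at MI day 3. The sham day 1 plates, at 1.52, 1.63 and 1.36, lay below the IR day 3 plates and overlapped with the other groups. The geometric mean was 2.22 at IR day 3, 1.19 at IR day 1 and 1.26 at MI day 3. IR day 3 differed from IR day 1 by 0.91 on the log2 scale (two-sided exact permutation test, *p* = 0.000599, 0.00539 adjusted over 9 tests) and MI day 3 from IR day 3 by -0.81 (exact *p* = 0.00433, the smallest 5 against 6 plates allow, 0.0130 adjusted). The ratio of *C1qc* to *C1qb* differed in both comparisons too (0.56 and -0.49, exact permutation *p* adjusted 0.0117 and 0.0292), and that of *C1qb* to *C1qa* in neither (adjusted 0.138 and 0.117). The MI day 3 and IR day 1 ratios differed by 0.02 to 0.09 (adjusted *p* from 0.693 to 0.927, exact). These tests were added after the data had been seen.

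**Figure D3:**
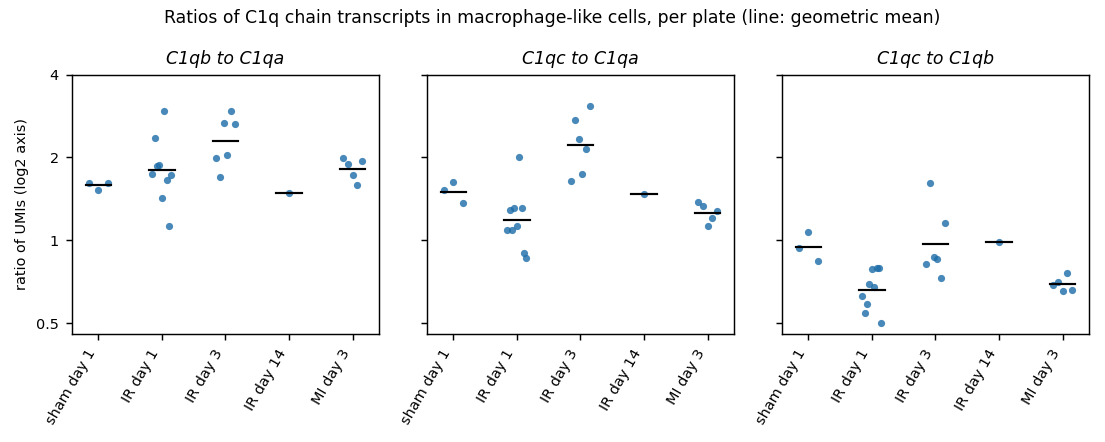
Ratios of the UMIs of C1q chains in macrophage-like cells (y axis log2, 1 point per plate with at least 5 such cells, line at the geometric mean). *C1qc* to *C1qa* is between 1.64 and 3.07 at IR day 3 and between 1.13 and 1.38 at MI day 3.

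Macrophage-like clusters also differed within plates. On the 8 plates with at least 5 cells in both, the *Gpnmb* cluster had more *C1qb* and *C1qc* than the *Saa3* cluster on 8 of 8, more *C3ar1* on 7 and more *C1qa* on 6, and the *Saa3* cluster had more *C3* on 8 of 8. Mean levels were 3151 ± 612 against 2140 ± 570 CPM for *C1qb* and 970 ± 159 against 639 ± 158 for *C3ar1* (SD, n = 8). *C5ar1* was higher in the *Gpnmb* cluster on 5 plates and in the *Saa3* cluster on 3. The clusters were cut from these cells, though without the complement genes, so these values are given without a test. The share of thinned cells with a *C1qc* UMI followed the sums, with 76.2% at sham day 1, 35.5% at IR day 1, 81.5% at IR day 3 and 66.7% at MI day 3 (85.7%, 52.7%, 94.9% and 95.7% unthinned). All 3 chains together were seen in 14 of 21, 24 of 110, 102 of 195 and 133 of 282 thinned cells.

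In fibroblast-like cells the central component *C3* and the regulator *Serping1* were highest at sham day 1. *C3* stood at 3421, 3420 and 3636 CPM on the 3 sham day 1 plates and 1078 on the single sham day 14 plate. It was at 380, 178, 225, 658 and 425 at IR day 1, at 1791, 550, 423 and 662 at IR day 3, at 26.2 and 490 at IR day 14, and at 154, 378, 99.95, 293 and 478 at MI day 3. Every MI plate was below every sham plate. *Serping1* was at 3104, 3837 and 3817 CPM at sham day 1 and 2351 at sham day 14. It was at 375, 345, 450, 735 and 537 at IR day 1, at 1913, 927, 945 and 715 at IR day 3, at 2122 and 2086 at IR day 14, and at 337, 373, 236, 509 and 279 at MI day 3. The MI plates lay below the sham, IR day 3 and IR day 14 plates and overlapped with IR day 1.

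Against both sham groups *C3* of MI day 3 fell by 2.64 ± 0.54 and *Serping1* fell by 2.93 ± 0.33 on the log2 scale (SE; edgeR adjusted *p* = 0.00159 and 1.48e-06). They were the 2 called of 6 tested members, where 18.5% of 5977 genes passed, 6.63% downwards, and the median of all genes was 0.39. Both calls held in all 18 alternatives. The MI sums held 967995 to 1760882 UMIs in 20 to 35 cells. The sham sums held 27506 to 67245 UMIs in 5 to 9 cells, and those of IR day 3 40230 to 278204 UMIs. Both falls are thus in the share of a library, on plates with a protocol label of their own. UMIs per cell of both genes overlapped between sham and MI plates. *Serping1* had 258 UMIs in 7 cells on sham day 1 replicate 3 and 105 in 9 on replicate 4. MI day 3 replicate 1 had 576 in 27. Against IR day 3 *Serping1* of MI day 3 fell by 1.71 ± 0.31 (adjusted *p* = 0.000953) and *C3* by 1.62 ± 0.51 (adjusted *p* = 0.0459), where 8.68% of genes passed. *C3* did not pass without IR day 3 replicate 3 (-1.08, adjusted *p* = 0.242), 4 or 7 or MI day 3 replicate 1, 2, 3 or 4 (0.0551 to 0.115). Nor did it pass with 1 cell per plate (0.121), complement genes in the clustering (0.0562) or a replicate block (-1.23, 0.337). From IR day 1 to IR day 3 *Serping1* rose by 1.25 ± 0.32 (edgeR adjusted *p* = 0.00714), among 4 of 6 members called where 22.3% of genes were. This rise did not pass with at least 10 cells per plate (1.53, adjusted *p* = 0.129) or with a replicate block (1.22, 0.109). *C3* differed by 1.22 ± 0.52 and did not pass (adjusted *p* = 0.0924).

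Fibroblast-like cells, too, were different mixtures. A cluster led by *Pi16*, a gene of resting fibroblasts, held all 36 fibroblast-like cells of the sham hearts, 19.6% at IR day 1, 35.1% at IR day 3, 88.2% at IR day 14 and 0.752% at MI day 3. The other cells were in a cluster led by *Cxcl5*, which held 99.2% at MI day 3. Pooled over groups, *C3* was at 1823 CPM in the *Pi16* cluster and 263 in the *Cxcl5* cluster, and *Serping1* at 2575 and 355. On the 1 plate with 5 cells of both, *C3* was higher in the *Cxcl5* cluster (2371 against 1307 CPM) and *Serping1* in the *Pi16* cluster (2240 against 1521). After thinning, a *Serping1* UMI was seen in all 23 fibroblast-like cells of sham day 1, 61.5% at sham day 14, 39.2% at IR day 1, 75.4% at IR day 3, 64.7% at IR day 14 and 25.6% at MI day 3 (all cells at sham day 1 and IR day 14, and 92.3%, 90.2%, 91.2% and 94.0% at sham day 14, IR day 1, IR day 3 and MI day 3, unthinned, at median depths from 3082 to 45080 UMIs).

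**Figure D4:**
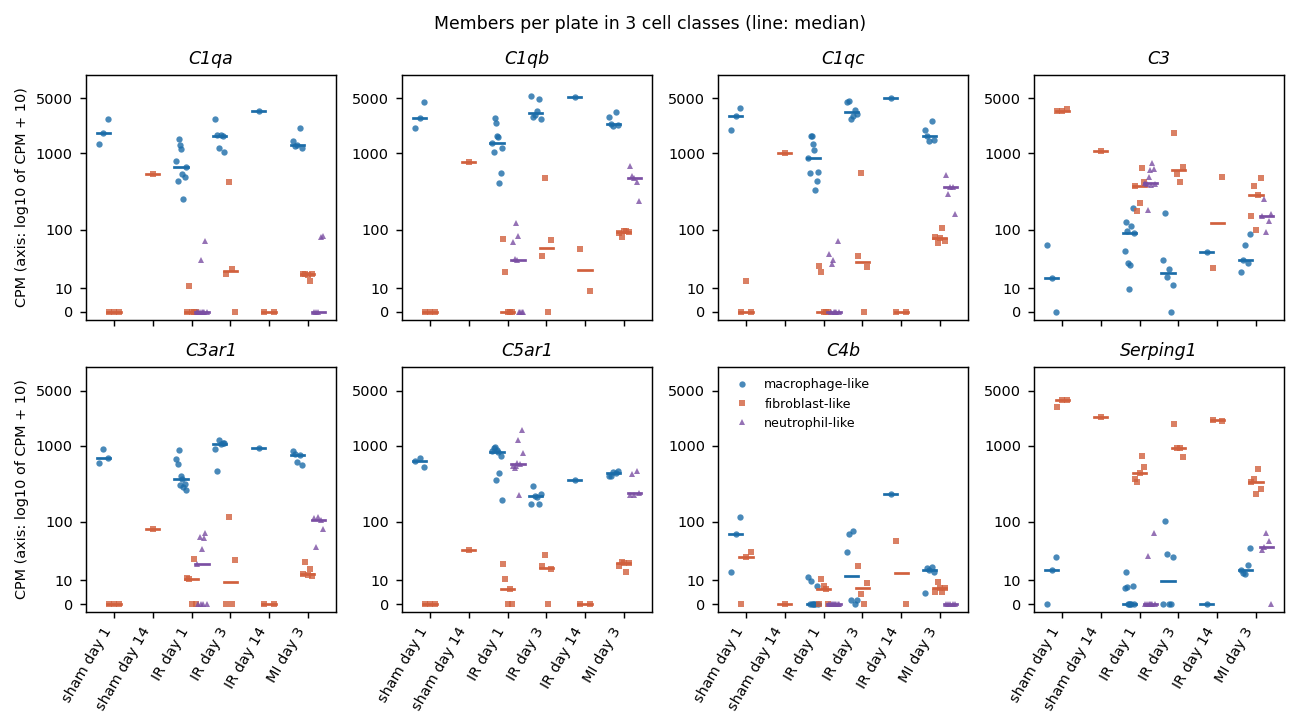
CPM of each gene per plate in macrophage-like, fibroblast-like and neutrophil-like cells (y axis log10 of CPM + 10, 1 point per plate with at least 5 cells of the class, line at the median). *C3* and *Serping1* of fibroblast-like cells are highest at sham day 1, and C1q of macrophage-like cells is lowest at IR day 1.

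C1q transcripts also appeared in the fibroblast-like sums, together with macrophage markers. *C1qb* was at 0 on the 3 sham day 1 plates, 784 on the single sham day 14 plate (replicate 8, macrophage markers 1038 CPM), the highest of these sums, 0 to 72.7 CPM at IR day 1, 78.9 or more, with a median of 92.0, at MI day 3, and 40.7, 482, 0 and 70.7 at IR day 3. *C1qa*, *C1qb* and *C1qc* passed upwards from IR day 1 to IR day 3 (edgeR adjusted *p* = 0.000630, 0.00388 and 0.000947), *C1qc* at MI day 3 against IR day 1 (adjusted *p* = 0.0416, 1 of 6 members where 8.37% of genes passed), and *C1qa* downwards at MI day 3 against IR day 3 (adjusted *p* = 0.000570). *C1qa* had 1 UMI in the fibroblast-like cells of IR day 1, so its fold change is not given. The calls with IR day 3 plates rested on IR day 3 replicate 4, at 428 (*C1qa*), 482 and 554 CPM. Without it the 3 chains did not pass against IR day 1 (adjusted *p* = 0.285, 0.414 and 0.420), and *C1qa* at MI day 3 against IR day 3 turned to 0.81 (adjusted *p* = 0.727). The 8 macrophage markers, all detected in fibroblast-like cells of both day 3 groups, summed to 2024 CPM there and to 24.9 to 204 CPM on the other IR day 3 plates, against a median of 177 at MI day 3. The *C1qc* call against IR day 1 was lost without any 1 of 9 plates, all but IR day 1 replicate 3 (adjusted *p* from 0.0534 to 0.109).

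The difference between the classes was tested directly for MI day 3 against IR day 3. Of 8 members, *C1qa* passed, as its change was higher in macrophage-like than in fibroblast-like cells by 3.08 ± 0.68 on the log2 scale (edgeR adjusted *p* = 0.0252), where 0.246% of 7314 genes passed. Without the fibroblast-like sum of IR day 3 replicate 4 it was -0.73 (adjusted *p* = 0.974). It also failed without macrophage-like IR day 3 replicate 7 or MI day 3 replicate 4 or fibroblast-like MI day 3 replicate 1, 3 or 4 (0.0597 to 0.0859). *C3* and *Serping1* had differences of 2.76 ± 0.83 and 1.23 ± 0.55, and neither passed (adjusted *p* = 0.149 and 0.504).

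In cardiomyocyte-like cells the C1q chains and *C3ar1* passed upwards at IR day 3 against both sham groups, 4 of 5 tested members where 6.62% of 4350 genes passed. *C1qc* was at 0, 243, 37.0, 342 and 302 CPM on the IR day 3 plates, 7.19 to 32.6 at sham day 1 and 0 to 25.3 at sham day 14, so that 1 plate overlapped with sham. The log2 difference was 3.39 ± 0.39 for *C1qc*, 3.22 ± 0.52 for *C1qa*, 2.93 ± 0.38 for *C1qb* and 3.38 ± 0.69 for *C3ar1* (SE; largest edgeR adjusted *p* = 0.000200). Macrophage markers moved with them. The 8 markers, all detected, summed to at least 161 CPM at IR day 3, with a median of 641, against 15.4 to 50.9 at sham day 1 and 0 to 48.7 at sham day 14, and the 3 chains to 92.4 to 736, 30.8 to 105 and 0 to 63.3. Cardiomyocyte-like cells, too, were different mixtures. A cluster led by *Sprr1a*, which also carried *Nppa* and *Nppb*, held 165 cells at IR day 3, 8 at sham day 1 and 4 at sham day 14. A cluster led by *Myh14* held 40, 110 and 126 cells in these groups. These counts are from before copies were left out. The parts of the markers and of this mixture in the result were not tested. No member passed at IR day 1 against sham day 1 or at IR day 14 against sham day 14 (edgeR, 0 of 5 in each, 2 and 0 with an unadjusted *p* under 0.05), where 12.4% and 0.207% of genes passed.

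Endothelial-like cells gave no call. *C1qa*, *C1qb*, *C1qc* and *Serping1* were tested and 0 of 4 passed in edgeR at IR day 1 against sham day 1, at IR day 3 and MI day 3 against both sham groups and at IR day 14 against sham day 14, with 2, 2, 0 and 1 below an unadjusted *p* of 0.05. In these comparisons 19.3%, 2.16%, 38.3% and 0.0% of 3294 genes passed. *Serping1* was at 102, 39.5, 150 and 102 CPM at sham day 1 and at 81.1, 33.0, 36.5, 119 and 150 at MI day 3, which overlapped. The 3 chains summed highest on replicate 8 of sham day 14, at 1905 CPM with macrophage markers at 1591, followed by IR day 3 replicate 7, at 1764 CPM with markers at 2079.

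**Figure D5:**
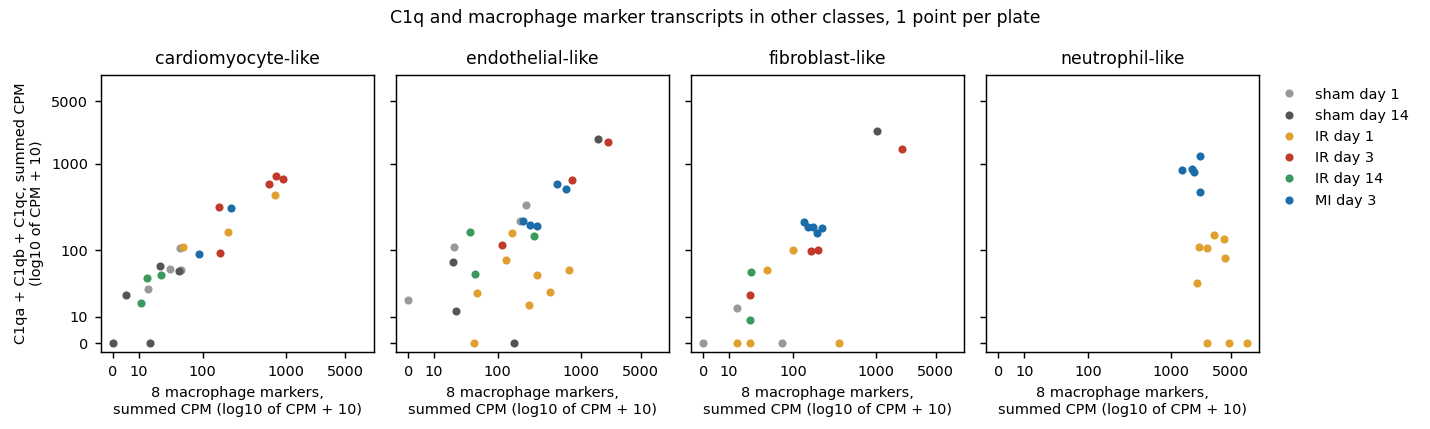
Summed CPM of *C1qa*, *C1qb* and *C1qc* (y axis) against the summed CPM of 8 macrophage markers (x axis) in classes other than macrophage-like, 1 point per plate, colour by group (both axes log10 of CPM + 10). IR day 3 replicate 4 stands highest among the IR day 3 points of fibroblast-like cells, at 1463 and 2024 CPM, and neutrophil-like plates of IR day 1 have markers from 2002 CPM with C1q of at most 153.

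Neutrophil-like cells carried *C3* and *C5ar1*. *C3* was between 183 and 761 CPM with a median of 416 on 9 IR day 1 plates, and at 152, 257, 92.2, 132 and 161 at MI day 3. *C5ar1* was between 234 and 1588 with a median of 585 at IR day 1 and at 228, 429, 231, 476 and 242 at MI day 3. For both genes the groups overlapped. These cells held 19.1% of the *C3* UMIs and 15.5% of the *C5ar1* UMIs of IR day 1, where fibroblast-like cells held 59.2% of *C3* and macrophage-like cells 77.5% of *C5ar1*. *C1qb* was at 0 to 122 CPM in them at IR day 1 and 242 to 683 at MI day 3, with no overlap, and the 3 chains together at 0 to 153 and 484 to 1215. The macrophage markers, of which *Ms4a7* was at 0 in both groups, summed to 2002 to 7667 and 1360 to 2180. No test was planned for this class, and the cells were shallow, at a median of 2087 UMIs.

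*C4b*, the mouse C4 component, was too rare to follow closely. The 34 plates gave 218 UMIs, 24 plates with at least 1, and the near-identical gene *C4a* had 3, so reads may be split between them. In macrophage-like cells it stood at 15.2, 67.1 and 118 CPM at sham day 1, 0 to 12.1 at IR day 1, 0 to 73.2 at IR day 3, 3.73 to 19.5 at MI day 3 and 239 on the IR day 14 plate, which had 6 such cells. Pooled over groups, which filled the clusters unequally, it was at 125 CPM in the 39 cells of the *Cd209f* cluster.

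A list of 41 further complement genes was followed in the same fits, of which 39 were in the tables and 14 reached 50 CPM in a class. The levels in this paragraph are pooled over groups, which filled the classes unequally, and those of mural-like cells rest on 15 cells. The order of classes was not tested. The genes of the proteases C1r and C1s, *C1ra* and *C1s*, were at 120 and 233 CPM in mural-like cells and 62.6 and 36.6 in fibroblast-like cells, and *Vtn* and *Colec11* at 299 and 73.1 in mural-like cells. *Cfp*, which encodes properdin, was at 456 CPM in macrophage-like cells, *Fcna*, a ficolin, at 67.3, and *Itgam*, *Itgax* and *Itgb2*, the chains of complement receptors 3 and 4, at 626, 49.1 and 763 there and 1017, 65.1 and 761 in neutrophil-like cells, where *C5ar2* was also highest. *Clu* and *Cd59a*, regulators of the membrane attack complex, were at 3586 and 343 in cardiomyocyte-like cells and *Cr1l* at 141 in endothelial-like cells.

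In fibroblast-like cells, 4 of 12 genes of this list fell and none rose at MI day 3 against both sham groups, among them *Cd55*, *C1ra* and *C1s*. The log2 differences of these 3 were -3.55, -2.43 and -2.28 (edgeR adjusted *p* from 6.01e-05 to 0.0297), where 6.63% of all genes fell. These falls, too, are in the share of a library that was deeper on the MI plates. Between IR day 3 and MI day 3, 3 of 12 fell (among them *Cd55* and *Cd59a*, which fell by 2.20 and 2.96), where 8.68% of all genes passed. From IR day 1 to IR day 3, 4 of 12 rose (among them *Cd55*, *Cd59a* and *Clu*), where 22.3% of all genes passed. *Clu* was the 1 of 12 that rose at MI day 3 against IR day 1, where 8.37% passed. In macrophage-like cells 3 of 11 rose from IR day 1 to IR day 3 (*Clu*, *Fcna* and *Vsig4*, the last a C3b receptor of resident macrophages) and 1 fell (*Itgam*, by 1.74 on the log2 scale), where 26.5% of all genes passed. *Vsig4* was at 151 CPM at sham day 1, 4.61 at IR day 1, 56.3 at IR day 3 and 12.6 at MI day 3.

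The remaining macrophage-like comparisons changed 1 to 3 of the 11. *Fcna* rose and *Itgam* and *Itgax* fell at MI day 3 against IR day 1 (7.19% of all genes passed), and *Cfp* rose and *Clu* and *Vsig4* fell at MI day 3 against IR day 3 (9.16%). *Vsig4* fell at IR day 1 against sham day 1 (2.79%) and was among the 2 that fell at MI day 3 against sham day 1 (2.4%). In the summed cells of the plates, 7 of 17 rose and 1 fell at IR day 3 against both sham groups, 6 rose and 4 fell at MI day 3 against both, and 5 rose and 6 fell at IR day 1 against sham day 1, where 30%, 56.5% and 36.3% of all genes passed. *Itgb2* rose in all 3, by 3.26, 2.97 and 2.36 on the log2 scale. MI day 3 against IR day 3 had 4 falls (17.2% of all genes passed), IR day 3 against IR day 1 had 4 rises and 1 fall (28.8%), and IR day 14 against sham day 14 had no call in edgeR (0.0215%). *Itgb2* also rose in cardiomyocyte-like cells at IR day 1 and IR day 3 and in endothelial-like cells at IR day 1 and MI day 3, and *Clu* in cardiomyocyte-like cells at IR day 3, 1 of 4 and 2 of 4 genes tested in cardiomyocyte-like cells (12.4% and 6.62% of all genes passed) and 1 of 6 each in endothelial-like cells (19.3% and 38.3%). Summed macrophage markers of cardiomyocyte-like cells had medians of 207 and 641 CPM at IR day 1 and IR day 3, and 43.3 and 16.8 at sham day 1 and 14. Those of endothelial-like cells had 196 and 306 at IR day 1 and MI day 3, and 106 and 92.2 at sham day 1 and 14. Their part in the *Itgb2* rises was not tested.

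Across 24 sums of a class and a group, the genes with the profile most like that of each member, among 8313, were named by Pearson's *r* as a description. For *C1qa* they were *Ly86*, *Mrc1*, *Folr2*, *Pld4* and *Fcrls* (0.98 to 0.94), for *C1qb* *Pld4*, *Ctsc*, *Lyz1*, *Cybb* and *Ctss* (0.96 to 0.95) and for *C1qc* *Pld4*, *Mrc1*, *Lyz1*, *Ly86* and *Tbxas1* (0.95 to 0.93). For *C3ar1* they were *Ctsc*, *Cybb*, *Ctss*, *Cd48* and *Lyz2* and for *C5ar1* *Alox5ap*, *Cyth4*, *Cd14*, *Sfpi1* and *Ccl4* (0.97 to 0.95 and 0.97 to 0.96). *Serping1* was most like *Dcn*, *Cygb*, *Col6a1*, *Lum* and *Naalad2* (0.97 to 0.96) and *C3* most like *Igfbp6*, *Gpr133*, *Pla1a*, *Gsn* and *Ms4a4d* (0.91 to 0.87). For *C4b* the nearest gene was *Serpinb8* at 0.83. Among the members, *C1qb* and *C1qc* were at 0.98, *C3ar1* and *C5ar1* at 0.84 and *C3* and *Serping1* at 0.77. Sums of a group share its plates, so the 24 points are not independent.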

How the data were processed

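Cells of the infarcted region were sorted into 384-well plates and sequenced by SORT-seq. Per the labels, the deposited values are UMI counts per gene and well, aligned by the authors with BWA to GRCm38 (mm10) and not normalized. All 36 tables were read, and mitochondrial rows were left out.

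Wells of at least 1000 UMIs were clustered with scanpy 1.11.5 (Python 3.11.15, Leiden resolution 1, 18 clusters) without the 8 genes and the wider complement list. With them, 98.4% of cells kept their class. Classes were named from fixed markers, and doublets were not called. Counts were summed per plate and class (at least 5 cells) and tested with edgeR 4.0.16 in R 4.3.3 (quasi-likelihood test, TMM scaling, filterByExpr, Benjamini-Hochberg adjustment over all genes, threshold 0.05). A comparison with both sham groups weighted the sham groups equally. The pipeline was tested on simulated data. Per-plate levels are CPM, and 10 was added before logarithms.

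The 8 genes are named throughout, and genes of the wider list where they passed a test or reached 50 CPM in a class, except 1 that is not reported here. The genes and lists were chosen with earlier results of these data known. The C1q ratio tests, the motifs and some alternatives were chosen after the data had been seen. Alternatives were RLE scaling, DESeq2 1.42.0, no gene filter, a replicate block, other minimums of cells and UMIs, other clusterings, copied wells kept and each plate left out. Promoters came from RefSeq (GRCm38.p6).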

Additional observations from a re-analysis of the deposited data

Results flagged for a closer look

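Some values stood far from the others of their group by Dixon's test. In all, 102 sets of a gene, a class and a group of 4 to 10 plates were checked and 19 values stood apart, where chance flags about 1 in 20 groups. In the sums of all cells these included *C1qa* at 1745 CPM on IR day 3 replicate 1, and *C3* at 977 and *Serping1* at 1071 CPM on IR day 3 replicate 3. *C4b* stood apart at 9.63 CPM (4 UMIs) on IR day 1 replicate 1 and at 13.8 CPM (1 UMI) on sham day 14 replicate 4. On sham day 14 replicate 8, *C5ar1* did so at 32.6 and *Serping1* at 475 CPM.

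In macrophage-like cells, IR day 3 replicate 3 had the highest *C3* of its group, at 170 CPM (5 UMIs). It also had the highest *Serping1*, at 102 CPM (3 UMIs), and the lowest *C3ar1*, at 475 CPM (14 UMIs). *Serping1* was also high on IR day 1 replicate 2, at 15.7 CPM (1 UMI), and MI day 3 replicate 5, at 41.9 CPM (40 UMIs). *C4b* was low on MI day 3 replicate 1, at 3.73 CPM (7 UMIs). In fibroblast-like cells, IR day 3 replicate 4 had all 3 C1q chains far above its group, at 428 (*C1qa*), 482 (*C1qb*) and 554 CPM (*C1qc*), with macrophage markers at 2024 CPM. *C1qa* was at 11.1 CPM (1 UMI) on IR day 1 replicate 5, where the other plates were at 0, and low on MI day 3 replicate 4, at 14.5 CPM. In neutrophil-like cells *Serping1* was at 69.1 CPM (1 UMI) on IR day 1 replicate 8.

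The change of *C1qa* from IR day 3 to MI day 3 differed between macrophage-like and fibroblast-like cells, by 3.08 on the log2 scale in the test of the difference. It was -0.73 without the fibroblast-like sum of IR day 3 replicate 4.

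Cells outside the cardiomyocyte-, fibroblast-, endothelial-, macrophage-, neutrophil- and mural-like classes, which entered the sums over all cells only, also held C1q. At MI day 3 *C1qb* was at 1303 CPM in these cells pooled (473 UMIs in 178 cells, 95% counting interval 1188 to 1426), against 137 CPM at sham day 1, 0 at sham day 14, 125 at IR day 1, 519 at IR day 3 and 32.4 at IR day 14. Of the 178 cells, 170 were in an unnamed cluster of shallow wells, whose median depth was 0.122 times the median of their plates. The source of C1q in these wells was not tested.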

How the results depend on the processing

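The 8 genes gave 50 calls, recomputed under 1094 alternatives in all. In 981 the call held, in 110 it was lost in the same direction and in 3 the sign turned. An alternative that gave the gene no adjusted *p* value was not counted, so calls lost in that way are not among the 110. The sign turned for *C1qa* in macrophage-like cells from IR day 1 to IR day 3 with clustering at resolution 2 (-0.33 on the log2 scale), for *C1qa* in fibroblast-like cells at MI day 3 against IR day 3 without IR day 3 replicate 4 (0.81, the range over plates left out being -3.71 to 0.81), and for the difference of *C1qa* between these classes without the same plate (-0.73, range -0.73 to 3.62). The macrophage-like against fibroblast-like calls, and *C3* and *Serping1* in fibroblast-like cells at MI day 3 against both sham groups, held in every alternative run for them.

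Counts of members called moved as follows. In all cells they stayed within 1.5 times, other than on leaving out plates, and the calls lost were *C1qc* at MI day 3 against sham with copied wells kept (adjusted *p* = 0.0522) and, from IR day 1 to IR day 3, *C1qa* in wells of 2000 UMIs (0.0707) and *C5ar1* with DESeq2 (0.0512). In macrophage-like cells from IR day 1 to IR day 3, 7 became 4 with at least 10 cells per plate (*C1qc*, *C3*, *C3ar1* and *C5ar1*) and 1 at resolution 2 (*C5ar1*). MI day 3 against IR day 1 went from 2 to 5 with no gene filter, 1 with RLE scaling, at least 10 cells (*C5ar1* in place of the others), wells of 2000 UMIs or complement genes in the clustering, and 0 with 1 cell per plate or resolution 2. MI day 3 against IR day 3 went from 1 to 2 with RLE scaling, DESeq2 or no filter. At IR day 1 against sham day 1, 2 became 4 with DESeq2 and 0 at resolution 2. Copied wells kept (1 call, *C1qc*) and 1 cell per plate (1 call, *C5ar1*, while *C1qa* and *C1qc* were lost) let sham day 14 plates in, so these compare IR day 1 with both sham groups.

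In fibroblast-like cells from IR day 1 to IR day 3, 4 became 2 with DESeq2 or 1 cell per plate (then *Serping1* and *C3*) and 0 with at least 10 cells. Comparing MI day 3 with IR day 1, 1 became 3 with no filter, 2 in cells without markers of other classes, and 0 with DESeq2, at least 10 cells, 1 cell per plate or resolution 2. MI day 3 against IR day 3 went from 3 to 6 with no filter or at least 10 cells, 5 with wells of 2000 UMIs and 1 with 1 cell per plate. In endothelial-like cells 0 became 5 at IR day 1, 2 at IR day 3 and 2 at MI day 3 with no filter. In cardiomyocyte-like cells 0 became 2 at IR day 1 with RLE scaling and 1 with DESeq2, no filter, at least 10 cells or wells of 2000 UMIs, and 4 became 2 at IR day 3 with 1 cell per plate. The causes were not tested. By mean CPM per cell the shares of UMIs were 84.1% (*C1qa*), 76.6% (*C1qb*), 74.9% (*C1qc*), 81.4% (*C3ar1*), 62.1% (*C5ar1*), 59.3% (*C3*) and 70.5% (*Serping1*).

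Leaving out 1 plate at a time gave 3 to 5 calls in all cells from IR day 1 to IR day 3. In macrophage-like cells it gave 6 to 7 from IR day 1 to IR day 3, 0 to 4 and 0 to 1 at MI day 3 against IR day 1 and IR day 3, and 0 to 3 at IR day 1 against sham day 1. In fibroblast-like cells it gave 1 to 6 from IR day 1 to IR day 3, and 0 to 2 and 1 to 5 at MI day 3 against IR day 1 and IR day 3. It gave 0 to 1, 0 to 2 and 0 to 2 in endothelial-like cells at IR day 1, IR day 3 and MI day 3, 3 to 4 in cardiomyocyte-like cells at IR day 3, and 0 to 1 for the difference between classes.

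Replicate numbers are shared between groups. The lowest correlation of same-numbered plates was between -0.20 and 0.15 over the comparisons. Their median was 0.24 in all cells at IR day 14 against sham day 14 (2 pairs), where other pairs had 0.0018. In the other comparisons it was at most 0.048. With a replicate block, calls in all cells went from 5 to 4 from IR day 1 to IR day 3, where *C5ar1* was lost (-1.09, adjusted *p* = 0.106). They went from 7 to 5, 2 to 0, 1 to 0 and 2 to 1 in macrophage-like cells (IR day 3 and MI day 3 against IR day 1, MI day 3 against IR day 3, IR day 1 against sham day 1). They went from 4 to 0, 1 to 0 and 3 to 1 in fibroblast-like cells (the first 3 of these comparisons), from 0 to 3 and 0 to 1 in endothelial-like cells at IR day 1 and MI day 3, and from 0 to 1 and 4 to 3 in cardiomyocyte-like cells at IR day 1 and IR day 3. No block could be fitted at IR day 14 in the last 2 classes.

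Sham day 14 gave few macrophage-like and fibroblast-like cells, and *C4b* counts were too low for most tests. The setting with cells free of markers of other classes gave values for fibroblast-like cells (MI day 3 against IR day 1) and cardiomyocyte-like cells (IR day 14) only. At least 10 cells per plate left no sham plate for the macrophage-like and fibroblast-like comparisons with sham. For the difference between classes, RLE scaling, DESeq2, no filter, 1 cell per plate, wells of 2000 UMIs, resolution 2, marker-free cells and the block were not run.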
